A study of Mus musculus with 2 samples.

Results

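Osteoclasts are the cells that resorb bone, and the genes described here are those of the signal that makes them and of the machinery they use. On the arrays for tooth and skin, 12 probes of 60 bases carried the gene names Tnfsf11, Tnfrsf11a, Tnfrsf11b, Nfatc1, Oscar, Calcr, Atp6v0d2, Acp5 and Ctsk. These 9 genes were chosen by name and are 9 of the 24323 named genes on the arrays, which have 33184 probes. Total RNA came from wild-type mice at postnatal day 0 per the labels, with 1 array for tooth and 1 array for skin. The study's methods name a stage 1 day later, and the labels were followed. How many animals gave RNA to each array is not stated in the labels, and each tissue was a mixture of cell types. With 1 array per tissue no difference could be tested, no p-value was calculated and no value has a replicate check. In such mixed RNA, fewer cells of a type and less RNA per cell cannot be told apart.

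RANKL, the product of Tnfsf11, is a ligand of the TNF family that stromal cells, osteoblasts and osteocytes present to precursors of the macrophage lineage. It binds RANK (Tnfrsf11a) on these precursors, and osteoprotegerin (Tnfrsf11b) is a secreted decoy receptor that takes RANKL away from RANK. RANK signals through Traf6, NF-kappaB, AP-1 and calcineurin to the transcription factor Nfatc1, with co-stimulation through ITAM adaptors that pair with receptors such as Oscar. The precursors then fuse into large cells that carry the calcitonin receptor (Calcr), pump acid onto bone with a proton pump that has the subunit Atp6v0d2, and secrete the enzymes cathepsin K (Ctsk) and tartrate-resistant acid phosphatase (Acp5). Around the developing tooth these cells open space in the jaw bone for tooth growth and eruption.

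The probes read short stretches of each transcript, and the stretches behind the main results are shown to make plain what was measured. All coordinates of probes are in mm9, per the file headers, and the last 30 bases of a probe are given where no other part was needed. Both Acp5 probes (chr9:21931190-21931249 for the brighter and chr9:21931175-21931234 for the dimmer, minus strand) overlap by 45 bases and hold AATAAA, the letters of the common polyadenylation signal, in capitals below. The probe for Oscar (chr7:3561419-3561478, minus strand) holds the same letters. The 2 probes of Atp6v0d2 (chr4:19805367-19805426 for the brighter and chr4:19804304-19804363 for the dimmer, minus strand) do not overlap. Whether a probe lies in coding sequence or in a UTR was not examined.
Acp5, brighter probe: aagtcttactgtcactgctattcAATAAAa
Acp5, dimmer probe: tcactgctattcAATAAAacaatgctttgt
Oscar: gacttgaacttgAATAAAtgttcctgcctc
Ctsk: ctattcgtgattctttgacaaatttacatg
Atp6v0d2, brighter probe: taaaatcaacagctacattccaattttata
Atp6v0d2, dimmer probe: cactctctatatacacatgctatgtagaat
Tnfrsf11b: ctacagactgtgtgtcctctcattaccaca

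Values are given as the processed signal of the scanner software and as log2 of this signal minus the 75th percentile of the array (428 in tooth and 276 in skin). Differences are skin minus tooth on this log2 scale, so a negative value is higher in tooth. A probe was measured on an array when the software called it well above background there. Where it was measured on 1 array only, a fold is a lower bound ("at least") against the lowest signal called well above background on the other array or the probe's own dim value, whichever was higher. The error given after a difference is the software's own spot error carried into the difference (1 SD), and it leaves out all variation between animals and preparations. A probe's level was not set against that of another probe.

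On the tooth array 9 of the 9 genes were measured, and 68.5% of all named genes were. On the skin array 6 of the 9 were measured, against 65.8% of all named genes. Tnfsf11, Calcr and Atp6v0d2 were the genes measured in tooth only. Among all 17409 named genes measured on at least 1 array, 1398 were measured in tooth only and 740 in skin only. At least 2-fold higher values in tooth were found for 6 of the 9 genes, 4 of which had a fold or bound of at least 2, and 15.5% of the 17409 named genes measured on at least 1 array were that much higher in tooth. Nfatc1 was the gene at least 2-fold higher in skin, where 14.2% of the named genes were that much higher. Tnfrsf11a and Oscar lay within 2-fold.

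The median difference of the 9 genes was -1.77 with dim values as measured and -0.84 with each at its bound, beside -0.04 and -0.01 over all named genes. The quartiles of all named genes were -0.58 and 0.47. Scaling on the spike-in transcripts in place of the 75th percentile moved the median named gene by -0.62, and a shift to the median of each array moved it by -0.25. Under the spike-in scaling 5648 named genes were at least 2-fold higher in tooth and 1572 in skin, against 2691 and 2466 under the main scaling, and a median shift gave 3500 and 2020. The direction of each of the 9 genes was the same under these scalings, with 8 higher in tooth and Nfatc1 higher in skin.

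**Figure D1:**
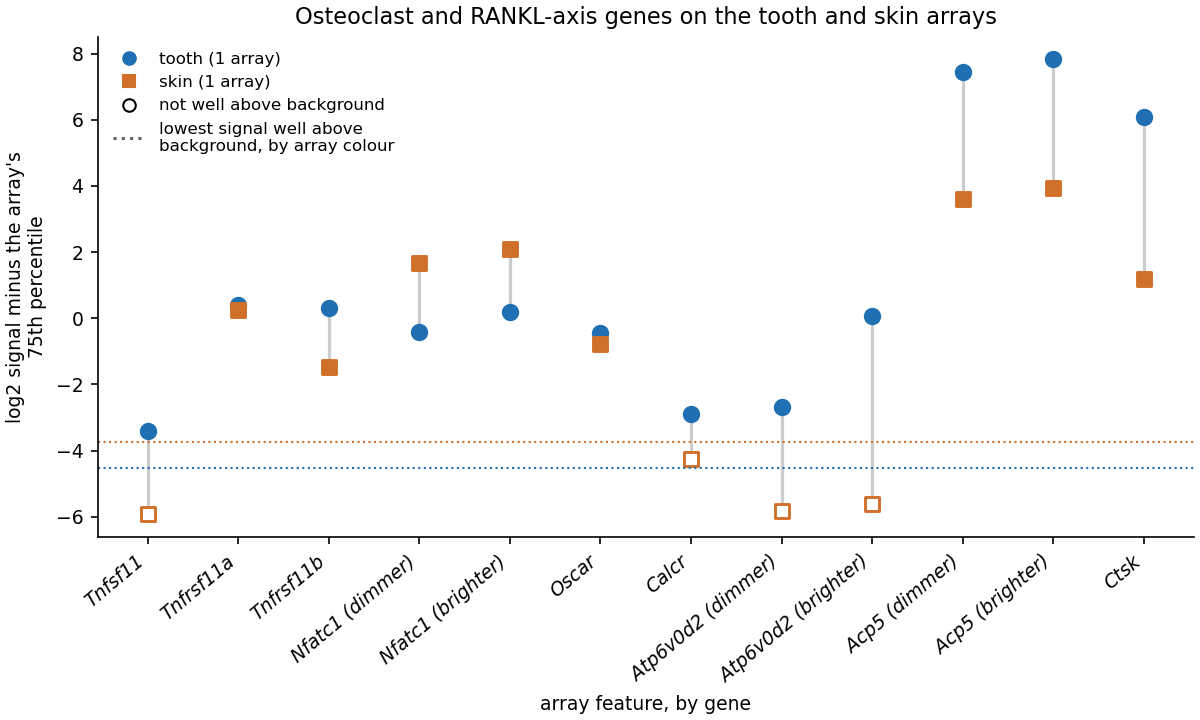
Level of each of the 12 probes for the 9 osteoclast and RANKL-axis genes on the tooth array (blue circles) and the skin array (orange squares), as log2 signal minus the 75th percentile of the array. Open symbols are not well above background, and dotted lines are the lowest signals called well above background, -4.52 in tooth and -3.73 in skin. Acp5, Ctsk and Atp6v0d2 lie far apart between the arrays, Tnfrsf11a and Oscar lie close together, and the 2 Nfatc1 probes are higher in skin.

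The ligand and its receptors were examined first. The Tnfsf11 probe (chr14:78677444-78677503, minus strand) had a signal of 39.99 in tooth and 4.51 in skin. The tooth value was low but above all 308 negative-control spots of that array, whose highest signal was 17.8. The skin value was a surrogate that the software writes for very dim spots, and 247 of the 308 negative-control spots in skin were at or above it. The scaled levels were -3.42 and -5.93, a difference of -2.51 as measured. The bound for RANKL transcript was at least 1.24-fold toward tooth, and with normexp background correction the difference was -0.14. The size of the difference in the ligand is therefore known only as a small lower limit.

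Tnfrsf11a, the receptor on osteoclast precursors, gave similar signals on both arrays. Its probe (chr1:107741892-107741951, plus strand) read 570 in tooth and 327 in skin, which after scaling were 0.41 and 0.25. The difference of -0.17 ± 0.21 was smaller than its spot error. Under spike-in scaling it was -0.79, still within 2-fold. Among the 15271 named genes measured on both arrays, 6293 (41.2%) differed more toward tooth.

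Tnfrsf11b, the decoy receptor, was 3.40-fold higher in tooth. Its probe (chr15:54082760-54082819, minus strand) read 526 in tooth and 99.7 in skin, with scaled levels of 0.30 and -1.47. The difference was -1.77 ± 0.22 and lay between -2.39 and -1.31 over the alternatives. Of the genes measured on both arrays, 785 (5.14%) differed more toward tooth. Of these 3 genes, Tnfrsf11b was thus past 2-fold toward tooth, Tnfrsf11a was within 2-fold, and the bound for Tnfsf11 was under 2-fold.

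Nfatc1, the transcription factor that RANK signalling induces and a main regulator of osteoclast genes, was the exception in direction. Its brighter probe read 487 in tooth and 1176 in skin, with scaled levels of 0.19 and 2.09. The difference of 1.91 ± 0.20 made it 3.75-fold higher in skin. A separate probe for a different transcript variant read 320 and 870, a difference of 2.07 ± 0.20, or 4.21-fold. Both probes therefore had the higher value in skin, and under spike-in scaling they still differed by 1.28 and 1.45. Of the genes measured on both arrays, 787 (5.15%) differed more toward skin than the brighter probe. Nfatc1 is also known in other cells, among them stem cells of the hair follicle.

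Oscar, a receptor that pairs with the ITAM adaptor Fcer1g and gives co-stimulation, read 316 in tooth and 161 in skin. The scaled levels were -0.44 and -0.78, a difference of -0.34 ± 0.21. It stayed within 2-fold under each scaling, with -0.96 under spike-in scaling.

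Calcr, the receptor through which calcitonin stops resorption, was low on both arrays. Its probe (chr6:3635940-3635999, minus strand) read 57.5 in tooth and 14.5 in skin, and 5 of the 308 negative-control spots in skin were at or above the latter. The skin value passed the software's more lenient call, significantly above background, but not the stricter one. Scaled levels were -2.90 and -4.25, and the difference as measured was -1.35. Its bound was at least 1.78-fold toward tooth, and with normexp correction the difference was -0.03.

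Atp6v0d2, the subunit of the proton pump that is needed for fusion of osteoclast precursors, was measured in tooth only. The brighter probe read 448 in tooth and 5.58 in skin, the latter a surrogate with 14 negative-control spots at or above it. Its scaled levels of 0.07 and -5.63 gave at least 13.9-fold more signal in tooth. The dimmer probe read 66.7 and 4.90 and gave at least 2.07-fold. Both probes had the same direction, and their measured differences were -5.70 and -3.13. With normexp correction the brighter probe gave -2.08.

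The secreted enzymes were measured on both arrays and were higher in tooth. Ctsk (chr3:95313165-95313224, plus strand), the main collagen-degrading protease of osteoclasts, read 28969 in tooth and 631 in skin. Scaled levels were 6.08 and 1.19, and the difference of -4.89 ± 0.20 made it 29.6-fold higher in tooth. Of the 15271 genes measured on both arrays, 33 (0.216%) differed more toward tooth. This count leaves out the 1398 genes measured in tooth only. Acp5, the phosphatase whose activity is the usual stain for osteoclasts, read 96849 in tooth and 4246 in skin by its brighter probe. Scaled levels were 7.82 and 3.94, and the difference was -3.88 ± 0.20, or 14.7-fold. The dimmer probe read 74378 and 3364, with a difference of -3.83, or 14.3-fold. Since the probes share 45 bases they are not independent readings of the transcript. For Acp5, 101 of the genes measured on both arrays (0.661%) differed more toward tooth. Neither enzyme was absent from skin, where both were well above background and no spot was saturated on either array.

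**Figure D2:**
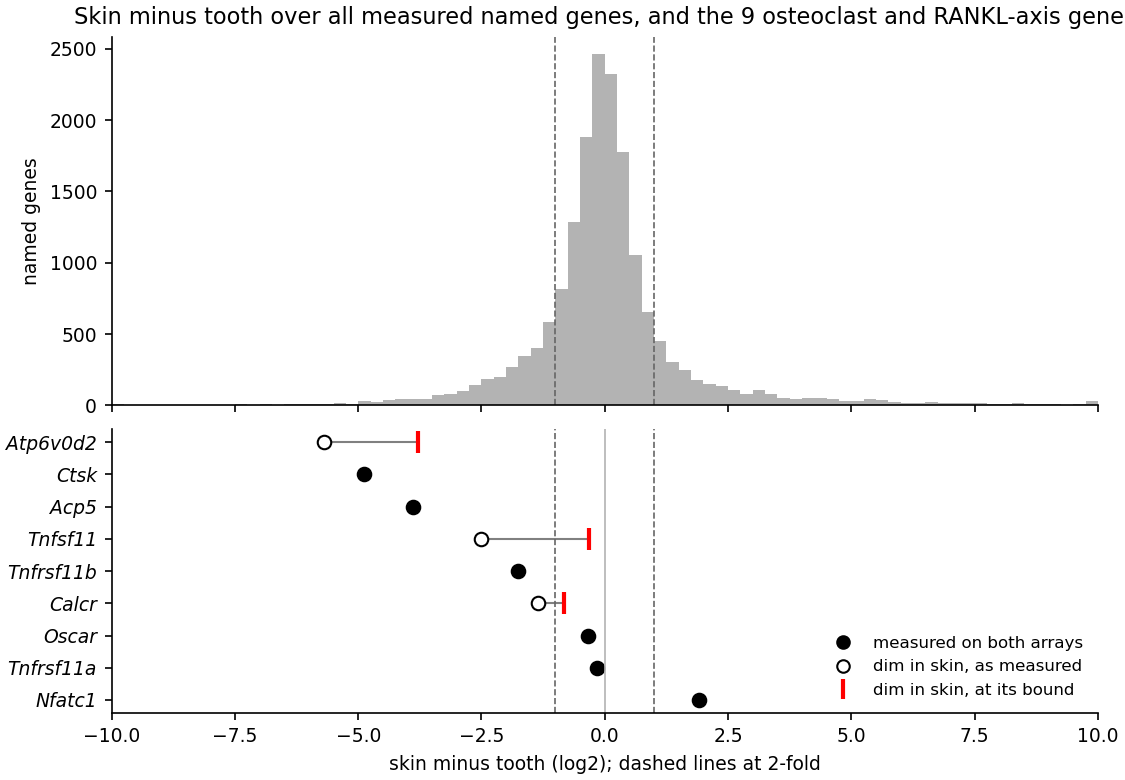
Above, the number of named genes by their skin minus tooth difference (log2, bins of 0.25, with genes beyond the axis in the end bins). Below, the 9 osteoclast and RANKL-axis genes on the same axis, with filled points for genes measured on both arrays and, for genes dim in skin, the measured difference (open) and the bound (red bar). Atp6v0d2, Ctsk and Acp5 lie in the left tail of the distribution and Nfatc1 lies right of the line for 2-fold.

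To place these values, other genes of the same pathway were grouped by role. Signalling below RANK (22 of 22 genes measured) had 2 genes at least 2-fold higher in tooth, 4 in skin and 16 within 2-fold, with a median of 0.04. This median changed sign with the scaling and was -0.59 under spike-in scaling, where 4 genes were at least 2-fold higher in tooth and 2 in skin. All 17409 named genes then had counts of 5648 and 1572 and a median of -0.67. The genes higher in tooth were Camk4 (-4.01, or -2.52 with normexp correction), a kinase of the calcium branch that activates Creb1, and the AP-1 protein Jdp2 (-1.33). Those higher in skin were the AP-1 genes Fos (2.20) and Jun (1.65), the phospholipase Plcg2 (1.55) and the RANK adaptor Traf6 (1.31). Under spike-in scaling these 4 remained higher in skin, though Plcg2 (0.92) and Traf6 (0.68) were then within 2-fold. The Traf6 partners Tab1 (-0.25) and Tab2 (0.42) were near equal, and Tab2 turned to -0.20 under spike-in scaling. AP-1 and calcium signals act in most cell types, so these values are not of osteoclasts alone.

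ITAM co-stimulation (8 of 8 measured) had a median of -0.58, with 2 genes at least 2-fold higher in tooth (1 with dim values at their bound) and 1 in skin. The ITAM adaptors Tyrobp (-0.73) and Fcer1g (-0.47) and the receptor Trem2 (-0.68) were measured on both arrays and within 2-fold. Under spike-in scaling these 3 were past 2-fold toward tooth (-1.35, -1.10 and -1.31), and 5 of the 8 genes were, with a median of -1.20. That scaling put 5648 of all 17409 named genes past 2-fold toward tooth, with a median of -0.67. The adaptor Blnk was higher in tooth (-1.73). The kinase Tec was higher in skin (2.26). Siglec15, a receptor of differentiated osteoclasts, was measured in tooth only and was at least 1.60-fold higher there, less than 2-fold as a bound.

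The factors of precursors (6 of 7 measured) showed no gene at least 2-fold higher in tooth and 3 in skin, with a median of 0.68 that fell to 0.05 under spike-in scaling. The cytokine Il34, a ligand of the Csf1 receptor that keratinocytes are known to make, had scaled levels of -2.48 (tooth) and 2.62 (skin), which differ by 5.10. Prdm1 (2.41), a repressor, and Mitf (1.25), a transcription factor of osteoclasts and of melanocytes, were also higher in skin. Mitf was within 2-fold (0.62) under spike-in scaling. The other ligand Csf1 (-0.63) and the receptor Csf1r (-0.43) were within 2-fold by their brightest probes. Other measured probes of Csf1 were at -1.09 and -0.79. Under spike-in scaling Csf1 was at -1.25 and Csf1r at -1.06. With that scaling 2 genes of the list were at least 2-fold higher in tooth and 2 in skin, beside 5648 and 1572 of all 17409 named genes. The probe of Spi1 was dim on both arrays, that is, well above background on neither.

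Genes of fusion and attachment (9 of 9 measured) had a median of -1.16, with 5 at least 2-fold higher in tooth and 0 in skin. Dcstamp, the receptor-like protein that precursors need to fuse, had scaled levels of 0.56 (tooth) and -3.68 (skin), which differ by -4.24. The skin level was close to the lowest signal called well above background there (-3.73), and normexp correction gave a difference of -2.68. The related Ocstamp differed by -1.16. The integrin chains of the osteoclast attachment ring, Itgb3 (-2.50) and Itgav (-1.41), and the adaptor Pstpip1 (-1.87) were likewise higher in tooth. With normexp correction 4 of the 9 were at least 2-fold higher in tooth, with Ocstamp at -0.75.

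Acid secretion and matrix breakdown had 13 genes, 3 of which are Acp5, Ctsk and Atp6v0d2. The other 10 were all measured, with 5 at least 2-fold higher in tooth, 0 in skin and a median of -0.91. The gelatinase Mmp9 was measured in tooth only and was at least 67.8-fold higher there. Car2, the carbonic anhydrase that supplies protons, had scaled levels of 2.62 (tooth) and -1.55 (skin), which differ by -4.17. The sorting nexin Snx10 was at 0.16 and -3.29 (-3.45, or -1.99 with normexp correction). Tcirg1, the pump subunit of the ruffled border, was just past 2-fold (-1.04) and fell to -0.91 with normexp correction. The chloride transporter Clcn7 (-0.34) and its partner Ostm1 (-0.23) were within 2-fold. Under spike-in scaling they were at -0.97 and -0.86, and the other Ostm1 probe was at 0.32 under the main scaling. Higher values in tooth were thus found for Mmp9, Car2 and Snx10 by large amounts, while the genes for lysosomal chloride transport stayed within 2-fold.

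Inhibitors of osteoclast formation (7 of 7 measured) had 3 genes at least 2-fold higher in tooth and 1 in skin, with a median of -0.19. Id3 (-2.45), Id2 (-1.94) and Id1 (-1.05), which many cell types express in response to BMP, were higher in tooth. Bcl6 (3.70), a repressor, was higher in skin. Irf8 (-0.19), a transcription factor of the macrophage lineage, was near equal.

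**Figure D3:**
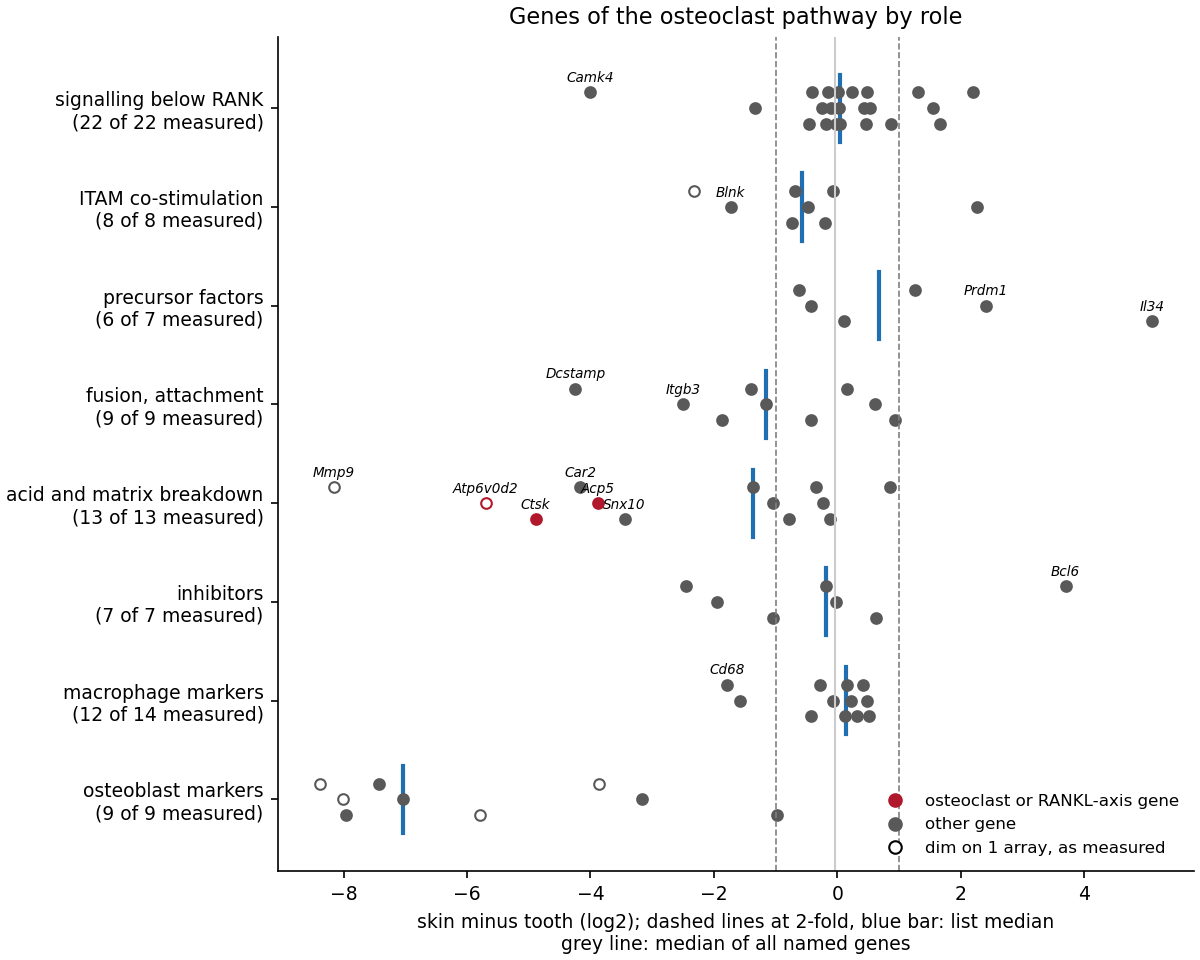
Skin minus tooth difference (log2) of each measured gene of 6 roles in the osteoclast pathway and of macrophage and osteoblast markers, with red points for the osteoclast genes of the main results, open points for genes dim on 1 array and a blue bar for the median of each list. Fusion, breakdown and osteoblast genes lie mostly left of the lines for 2-fold, and macrophage markers lie mostly between them.

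Markers of other cell types were read beside these values. Macrophages share the precursor of osteoclasts, and 12 of 14 macrophage markers were measured, with 2 at least 2-fold higher in tooth, 0 in skin and a median of 0.14. The 12 measured markers summed to 68.5 in tooth and 62.8 in skin on the linear scale, in units of each array's 75th percentile, with the largest part of both sums from Itgam. Adgre1 (0.52), Itgam (0.13) and Cd14 (0.48) were within 2-fold, whereas Cd68 (-1.79) and Lyz2 (-1.58) were higher in tooth. Under spike-in scaling the median was -0.49 and 0 of the 12 were higher in skin. Of all 17409 named genes 3576 were higher in skin then, and their median was -0.67. Cd163 and Fcgr1 were dim on both arrays. Cd68 and Csf1r are also expressed by osteoclasts.

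Osteoblast markers differed far more. All 9 were measured in tooth, 8 were at least 2-fold higher there and the median was -7.04, or -6.00 with dim values at their bound. The sum over the list was 632 in tooth and 52.5 in skin, and most of both sums came from the collagen gene Col1a1 (8.85 in tooth and 5.68 in skin on the log2 scale), which fibroblasts also express and which was named after its values had been seen. Bglap (osteocalcin) differed by -7.96, Ibsp by -7.43 and the phosphatase Alpl by -7.04. The remaining Bglap probe showed a smaller difference of -3.91, whereas the remaining Ibsp probe was at -7.35. Phex was at least 110.3-fold, Dmp1 at least 63.9-fold, Spp1 at least 55.0-fold and the transcription factor Sp7 at least 14.6-fold higher in tooth. Runx2 was at -0.97 by its brightest probe and at -5.23 and -1.97 by its other probes. Odontoblasts, which make dentin, express several of these genes as well, and so do bone cells, so the list does not separate tooth from jaw bone. The part of bone cells in the higher values of osteoclast genes in tooth was not tested. Which cell types made these transcripts was not examined. Genes that mark the labelled tissues were present, as 5 of 5 genes of enamel and dentin (Dspp, Amelx, Ambn, Enam and Mmp20) were measured in tooth only, and 6 of 7 epidermal genes were at least 2-fold higher in skin.

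Several of the 9 genes have close relatives with other functions, which show whether a whole family was higher in a tissue. The proton pump has subunits in all cells, and 23 of the 24 others were measured, with 2 at least 2-fold higher in tooth, 3 in skin and a median of -0.23. Those at least 2-fold higher in tooth were Tcirg1 and Atp6ap2 (-1.01). Those higher in skin were Atp6v1c2 (6.04), Atp6v1b1 (4.04) and Atp6v0a4 (3.22), subunits restricted to certain epithelia. Under spike-in scaling 7 of the 23 were at least 2-fold higher in tooth and 3 in skin. The same counts over all 17409 named genes were 5648 and 1572. Atp6v0d1, the widespread counterpart of Atp6v0d2, was at -0.05 and was named after its value had been seen. The counterparts therefore stood apart, at -0.05 for Atp6v0d1 and at least 13.9-fold higher in tooth for Atp6v0d2.

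The cathepsins listed were those with a single-letter name shared by mouse and human. Those other than Ctsk (13 of 13 measured) had 1 gene at least 2-fold higher in tooth, 5 in skin and a median of 0.66. Under spike-in scaling 3 were at least 2-fold higher in tooth and 2 in skin, with a median of 0.04. Over all 17409 named genes these counts were 5648 and 1572. Ctse (3.70), Ctsc (2.28), Ctsh (1.54) and Ctsa (1.44) were higher in skin and Ctsz (-1.51) in tooth. Under spike-in scaling Ctsh (0.91) and Ctsa (0.81) were within 2-fold. Ctsb, a widespread lysosomal protease, was at -0.40, and at -1.02 under spike-in scaling. Ctsk at -4.89 thus lay below each of the 13 other cathepsins listed. Among the other acid phosphatases (5 of 5 measured), Acp4 had a bound of at least 47.2-fold toward tooth. The probes of Acpp disagreed, with -2.31 for the brighter and 0.83 for the dimmer, so its direction is uncertain. Acp1 (-0.25) and Acp2 (-0.79), both widespread, were within 2-fold by their brightest probes. Acp2 was at -1.44 by its other probe, and its brighter probe was at -1.42 under spike-in scaling.

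Of the other NFAT genes (4 of 4 measured), Nfatc4 was past 2-fold toward tooth (-1.33), and Nfatc2 (0.48) and Nfatc3 (-0.12) were within 2-fold. Nfatc2 turned to -0.14 under spike-in scaling. Nfatc1 was the NFAT gene with the largest difference toward skin. In the calcitonin family, Calca, which encodes calcitonin and a neuropeptide, had a bound of at least 6.75-fold toward tooth. The receptor partner Ramp2 (-1.61) was higher in tooth, and Adm (1.16) and Calcb (at least 2.70-fold) were higher in skin. Ramp1, also a receptor partner, was within 2-fold (0.80) by its brightest probe, and its other measured probes were at 0.04 and 0.88. Under spike-in scaling its brightest probe was at 0.17. Calcrl, the relative of Calcr, was dim on both arrays. Adm (0.53) and, as measured, Calcb (0.81) were within 2-fold under spike-in scaling. With normexp correction Adm was at 0.85 and Calcb at 0.79.

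TNF ligands other than Tnfsf11 were mostly dim. Of 17 listed, 16 were found on the arrays by name. Of these 16, 5 were measured, with 3 at least 2-fold higher in tooth (2 with dim values at their bound) and 0 in skin. Ltb (-2.63) and Tnfsf9 (-1.10) were higher in tooth, and Tnf and Lta were dim on both arrays. With normexp correction Ltb was at -1.41 and Tnfsf9 at -0.23. The TNF receptors other than Tnfrsf11a and Tnfrsf11b (19 of 24 measured) had 2 genes at least 2-fold higher in tooth, 6 in skin and a median of 0.53. Under spike-in scaling 5 were at least 2-fold higher in tooth and 3 in skin, with a median of -0.09. Over all 17409 named genes these counts were 5648 and 1572. Cd40 had a bound of at least 29.8-fold toward tooth. In skin Tnfrsf18 (3.40) and Tnfrsf4 (1.28) were higher, Edar, the ectodysplasin receptor of hair and tooth placodes, was at least 3.48-fold higher and Tnfrsf13c at least 2.94-fold. Tnfrsf4 was within 2-fold (0.66) under spike-in scaling. With normexp correction Edar was at 1.05 and Tnfrsf13c at 0.74. Tnfrsf1a (0.85) and Ltbr (-0.09) were within 2-fold, and Tnfrsf1b was dim on both arrays.

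**Figure D4:**
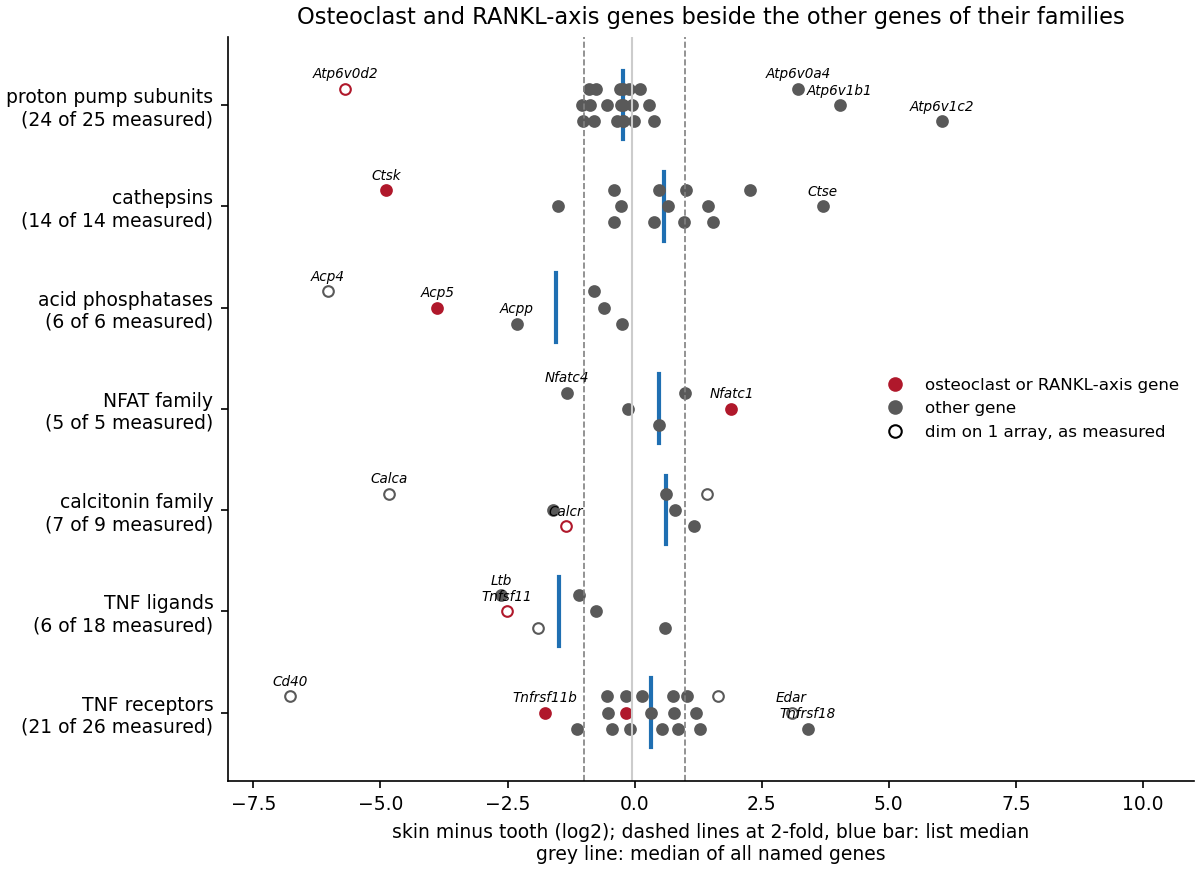
Skin minus tooth difference (log2) of the osteoclast and RANKL-axis genes (red) beside the other measured genes of their families (grey), with open points for genes dim on 1 array and a blue bar for the median of each family. Ctsk and Atp6v0d2 lie left of every relative shown, and Nfatc1 lies right of the other NFAT genes.

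Promoter windows were read to show the letters that known regulators of osteoclast genes bind. RefSeq windows (assembly GRCm38.p6, 250 bases before to 50 after an annotated start) were on hand for 6 of the 9 genes, in 9 windows. The windows of Ctsk (chr3:95498960-95499259, plus strand), the third window of Acp5 (chr9:22130549-22130848, minus strand) and that of Oscar (chr7:3616108-3616407, minus strand) are those of the 9 that hold any of the 5 motifs searched. Capitals mark TGGAAA (the core bound by NFAT proteins), GAGGAA (the PU.1 core) and CACATG (the core of the M-box bound by Mitf), each on either strand. The other 2 motifs searched, the E-box CACGTG and the AP-1 site TGANTCA, were in 0 of the 9 windows.
Ctsk: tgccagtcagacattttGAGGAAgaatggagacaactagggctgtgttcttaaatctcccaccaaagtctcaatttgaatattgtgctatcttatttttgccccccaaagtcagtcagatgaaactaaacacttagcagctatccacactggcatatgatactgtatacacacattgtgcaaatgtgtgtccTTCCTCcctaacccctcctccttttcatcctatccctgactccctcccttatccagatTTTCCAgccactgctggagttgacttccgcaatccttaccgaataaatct
Acp5: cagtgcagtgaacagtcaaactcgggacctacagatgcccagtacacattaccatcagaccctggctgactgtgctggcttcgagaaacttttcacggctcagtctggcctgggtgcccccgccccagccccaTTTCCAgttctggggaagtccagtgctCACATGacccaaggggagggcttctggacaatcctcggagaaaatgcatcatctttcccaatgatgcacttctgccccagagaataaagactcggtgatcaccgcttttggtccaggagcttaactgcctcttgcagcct
Oscar: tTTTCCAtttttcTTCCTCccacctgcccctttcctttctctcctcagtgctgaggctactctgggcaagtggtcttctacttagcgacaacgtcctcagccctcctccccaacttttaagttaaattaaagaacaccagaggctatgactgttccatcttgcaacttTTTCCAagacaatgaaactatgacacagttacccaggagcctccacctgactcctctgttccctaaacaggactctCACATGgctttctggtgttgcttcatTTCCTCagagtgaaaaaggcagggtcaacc

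TGGAAA was found in 3 of the 9 windows, which belong to 3 of the 6 genes, and in 21.4% of all 32851 windows of the table. In Ctsk it began at the annotated start, in Acp5 117 bases before it, and in Oscar 249 and 82 bases before it. GAGGAA was in 2 of the 9 windows and in 28.3% of all windows, 233 and 58 bases before the start of Ctsk, and in Oscar 237 bases before and 20 bases after the start. CACATG was in 2 of the 9 windows and in 14.2% of all, 90 bases before the start of Acp5 and 6 bases before that of Oscar. All windows with CACGTG and TGANTCA were 7.15% and 7.81% of the table. The windows shown were chosen because they hold a motif. The other 2 windows of Acp5 and those of Tnfrsf11a, Calcr and Tnfsf11 held none of the 5, and the matches are of letters only.

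The values of the 9 genes were recomputed with other settings. Ctsk lay between -5.51 and -4.78 over the alternatives, Acp5 between -4.50 and -3.86, and Nfatc1 between 1.28 and 1.99. Atp6v0d2, dim in skin, spanned -6.32 to -2.08. The genes near background spanned the widest part of their own size, from -3.14 to -0.14 for Tnfsf11 and from -1.98 to -0.03 for Calcr. No alternative turned the direction of a gene among the 9.

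**Figure D5:**
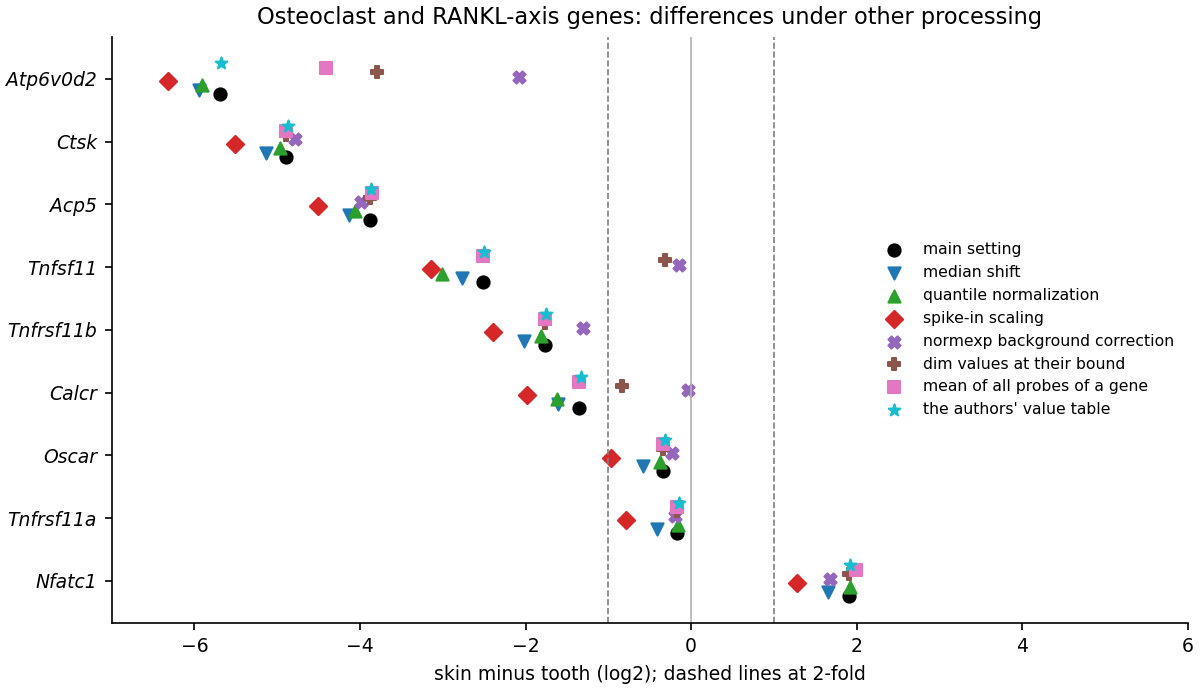
Skin minus tooth difference (log2) of the 9 osteoclast and RANKL-axis genes under the main setting (black circles) and 7 other settings, named in the legend, with dashed lines at 2-fold. Ctsk and Acp5 stay below -3.8 under every setting shown, and Tnfsf11 and Calcr lie near 0 under normexp correction.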

How the data were processed

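Total RNA of tooth and skin was labelled with Cy3 and hybridised to 1 Agilent mouse array per tissue. The deposited intensities are linear and, per the file headers, come from Agilent Feature Extraction 10.7.3.1, which subtracted background, corrected trends across the array and wrote surrogates for very dim spots. The authors also deposited a table of ratios, each the processed intensity divided by a factor of its array (430.7 in tooth, 274.5 in skin), which was used as an alternative. Flags deposited with the spots gave outliers, saturation and detection.

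Outlier spots (137 in tooth and 146 in skin) were left out, and 55675 probes kept at least 1 spot on each array. Spots of a probe were averaged on the log2 scale, and the 75th percentile over non-control probes was subtracted from each array. A probe was measured where over 50% of its spots were well above background. The brightest probe by mean over both arrays stood for a gene. Names came from the array's accessions matched to a RefSeq table (82.1% of named probes), and the file's name was kept otherwise. The array number limits the precision, and the median SD among spots of a probe was 0.08 in tooth (288 probes) and 0.09 in skin (273 probes). A change of 2-fold was the threshold, with no test. The script was tested on simulated data.

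The 9 genes and the gene lists were chosen with earlier results of these data known. Genes named from a list were those at least 2-fold different on both arrays or with a bound of at least 2-fold, up to 6 a list by size, and the first 3 of each list. An item that this rule would name is not reported here. The alternatives were a median shift, quantile normalization, spike-in scaling (8 spike-ins), normexp correction (offset 50), a more lenient detection call, no filter or measurement on both arrays, dim values at their bound, the mean of a gene's probes, and the authors' table. Python 3.11.15, numpy 2.4.6, pandas 2.3.3, R 4.3.3 and limma 3.58.1 were used.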

Additional observations from a re-analysis of the deposited data

How the results depend on the processing

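The counts of genes well above background (9 in tooth and 6 in skin, 7 in skin with the more lenient call) and the count at least 2-fold higher in skin (1) stayed within 1.5 times of the main value under the alternatives that could be run for them. The count at least 2-fold higher in tooth was 6, fell to 3 when only genes measured on both arrays were used, since 3 of the 9 were dim in skin, and was 4 with normexp correction or with dim values at their bound. The median difference over the 9 genes was -1.77 and moved to -2.02 under a median shift, -2.39 under spike-in scaling, -0.23 with normexp correction, -0.84 when bounds replaced dim values and -1.05 over genes measured on both arrays. Normexp correction adds an offset of 50 to each signal, which pulls differences of dim probes toward 0. No value changed sign. No paired analysis was possible because each tissue had 1 array. The order of values near background is not resolved on these arrays.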
